A study of Mus musculus with 4 samples.

Results

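The promoter region of Atf4 held 1 TFE3 peak in each of the 3 peak lists of this study, and in cells starved for 2 hours it carried the highest score of the 1712 peaks. The peaks were found by position, as those overlapping a window of 12000 bp on chromosome 15 of the mouse build mm9, from 5614 bp before to 6386 bp after the Atf4 start, which was taken to lie near 80085614. The window contained 1 of 422 peaks in control cells, 1 of 1712 in starved cells and 1 of 2776 in cells given tunicamycin. These 3 peaks merged into 1 of the 3415 regions of the series. The locus was chosen by its height in the peak lists, with the score and fold of its peaks already known, so its ranks and signals below are descriptions without a test.

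TFE3 had been immunoprecipitated from mouse embryonic fibroblasts of 1 line, labelled CRL-2977, and the recovered DNA sequenced (ChIP-seq). Control cells were in full medium with 10% serum, and starved cells spent 2 hours in Earle's balanced salt solution. The last group received tunicamycin at 0.1 µg/ml for 16 hours, also with 10% serum. All cells were fixed in 1% formaldehyde. Each condition had 1 TFE3 library, and 1 library made with rabbit IgG was the background of every list. The labels of the IgG library give 10% serum and record neither starvation nor tunicamycin. No condition had a replicate, so every difference below is a difference between libraries, and the treatment cannot be told apart from the library.

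Atf4 encodes a basic leucine zipper transcription factor at the centre of the integrated stress response. Kinases that sense amino acid shortage, unfolded proteins in the endoplasmic reticulum and other stresses phosphorylate the initiation factor eIF2. General translation then falls, while translation of the Atf4 message goes up, and ATF4 switches on genes for amino acid supply, redox control and, under lasting stress, cell death. TFE3 belongs to the MITF/TFE family, which binds E-box sequences and controls genes of lysosomes and autophagy. It is kept in the cytoplasm of fed cells and enters the nucleus when nutrients are short. Tunicamycin blocks N-linked glycosylation, so misfolded proteins build up in the endoplasmic reticulum. The series asks how the MITF/TFE3 family takes part in the integrated stress response, and TFE3 at Atf4 addresses that question at the gene of its main effector.

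The 250 bases before the Atf4 start are shown because they are the part of this promoter that the RefSeq table of promoters (build GRCm38.p6, plus strand) holds upstream of the gene. Capitals mark the motif matches, which are described next.
Atf4: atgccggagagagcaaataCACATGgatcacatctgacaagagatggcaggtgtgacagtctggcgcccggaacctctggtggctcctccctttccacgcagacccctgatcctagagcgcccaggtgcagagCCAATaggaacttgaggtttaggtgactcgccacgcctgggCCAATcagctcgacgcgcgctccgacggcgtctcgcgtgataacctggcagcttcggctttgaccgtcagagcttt
Motifs were searched on both strands. The E-box CACGTG, its longer form TCACGTGA and the M-box TCATGTG were not among these 250 letters. Over the same 250 bases of all 32851 promoters of the table, 6.02% held CACGTG, 0.785% held TCACGTGA and 3.25% held TCATGTG. The related E-box CACATG occurred once, 231 to 226 bases before the start, and was present in 12.3% of promoters. CCAAT, the motif of the NF-Y factor, occurred at 117 to 113 and at 76 to 72 bases before the start, and 33.8% of promoters had at least 1. The composite element TGATGCAA, bound by ATF4 itself with C/EBP partners, the GC box GGGCGG and the TATA box TATAAA had no match, against 0.791%, 32.7% and 12.4% of promoters. The stretch was 59.2% G and C (median of all promoters 52.4%) and held 18 CG dinucleotides (median 6). The stretch reaches little of the TFE3 peaks, whose summits were downstream of the start, so the letters under the summits are not shown.

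TFE3 peaks at Atf4 began near the start of the gene and extended into its first bases. In control cells the peak ran from 80085673 to 80085966, a width of 294 bp that began 59 bp after the start. In starved cells it ran from 80085560 to 80086068 (509 bp), from 54 bp before the start to 454 bp after it. In tunicamycin it ran from 80085525 to 80086066 (542 bp), from 89 bp before to 452 bp after. The control peak thus lay entirely inside both stress peaks, which shared 507 bp with each other and ended 2 bp apart. The control peak also lay inside both stress peaks in 161 of the 169 regions called in all 3 lists (95.3%), so this nesting was the usual arrangement. The start itself was covered by the starvation and tunicamycin peaks and not by the control peak. Of the starvation peak 10.6% lay before the start, and of the tunicamycin peak 16.4%. In the RefSeq gene order Atf4 stands between Mief1 and Rps19bp1. Exon and intron limits in mm9 were not used here.

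**Figure D1:**
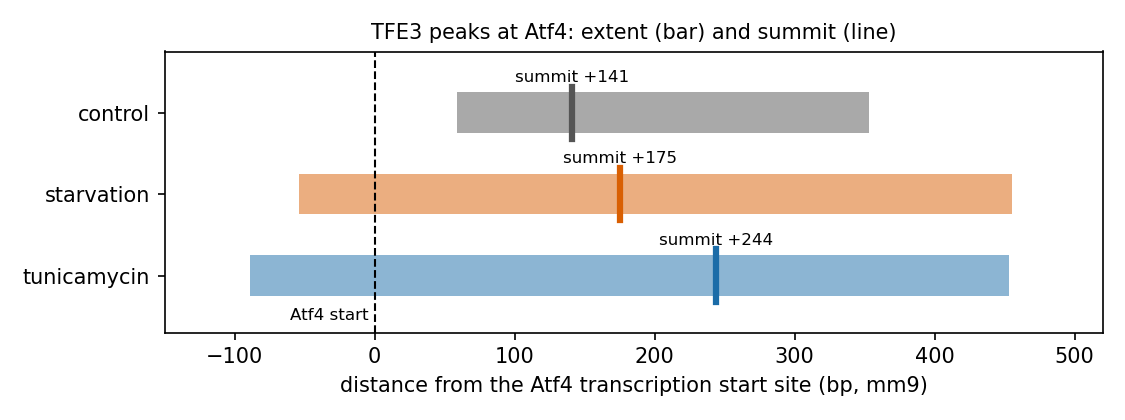
Extent (bars) and summit (vertical lines) of the TFE3 peak at Atf4 in each list, by distance in bp from the Atf4 transcription start (dashed line). The control bar lies within the 2 stress bars, and the summits stand at 141, 175 and 244 bp in control, starvation and tunicamycin.

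The summit, the point of highest TFE3 signal within a peak, was downstream of the Atf4 start in all 3 lists but not at one place. It was at 80085755 in control, 141 bp after the start, at 80085789 in starvation (175 bp) and at 80085858 in tunicamycin (244 bp), counted from 1. Measured along the peak from its start, the summit was at 27.9% of the width in control, 45.0% in starvation and 61.4% in tunicamycin. The starvation and tunicamycin summits were 69 bp apart, which was the sixth highest such distance among the 169 regions called in all lists, where the median was 11 bp (interquartile range 5 to 19). Only 11 of these regions (6.51%) had stress summits more than 50 bp apart. Control and tunicamycin summits at Atf4 were 103 bp apart, rank 4 of 169 against a median of 15 bp. Control and starvation summits were 34 bp apart, rank 39 against a median of 17 bp. The order control, starvation, tunicamycin along the chromosome was shared by 33 of the 169 regions (19.5%). Midpoints of the Atf4 peaks were closer together, at 5.5 bp for control and starvation, 24 bp for control and tunicamycin and 18.5 bp for the 2 stresses. The last of these was near the median of 19.5 bp over the 169 regions. The stress peaks therefore covered nearly the same bases, and their highest points differed. A summit is a single position of 1 library, and its error could not be measured.

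**Figure D2:**
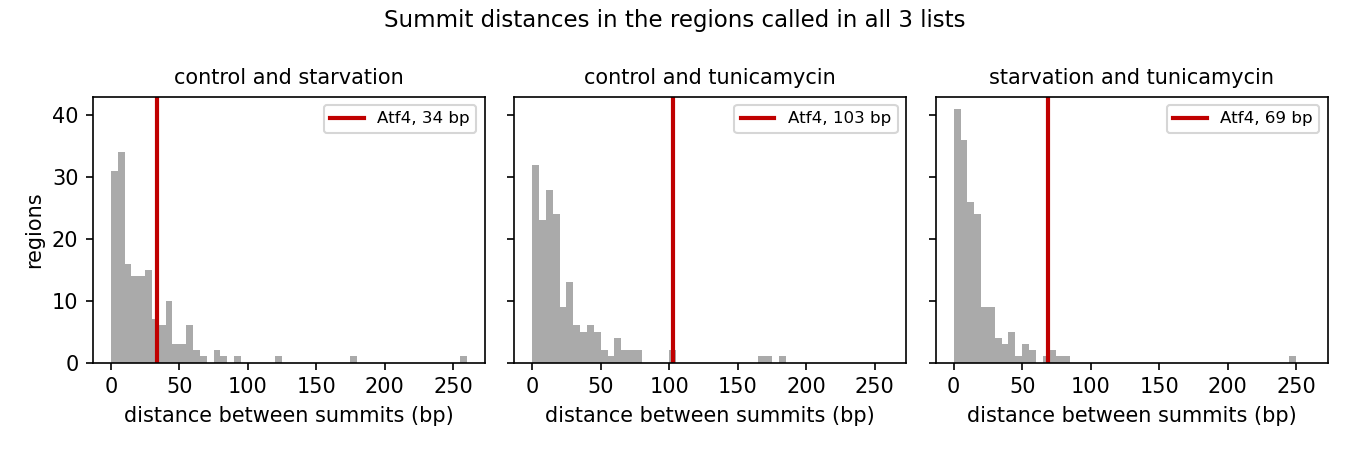
Distance between summits (bp, x axis) of each pair of lists in the 169 regions called in all 3 lists, as the number of regions per 5 bp (y axis). The red line is Atf4, at 34, 103 and 69 bp, and lies in the far tail for the 2 pairs with tunicamycin.

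Atf4 was a strong TFE3 peak in each list, and was first in starvation. The score, which is the −log10 q-value times 10 with decimals dropped, was 176 in control, 941 in starvation and 849 in tunicamycin. The Atf4 peak ranked 38 of 422 in control, tied with 1 other peak, 1 of 1712 in starvation and 18 of 2776 in tunicamycin. In control 9.24% of peaks scored as high or higher, in starvation 0.0584% and in tunicamycin 0.648%. The lists have unequal lengths, so these ranks are places within a list and not a change between lists. The authors' fold enrichment over local background was 9.45 in control, 23.7 in starvation and 20.7 in tunicamycin, or 1.54, 3.69 and 3.28 times the median of the list. By fold the ranks were 40, 5 and 24. The first place in starvation therefore belonged to the score and the p-value, while 4 starvation peaks had a higher fold. Widths ranked 99, 59 and 53, at 1.36, 1.91 and 1.90 times the median width.

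**Figure D3:**
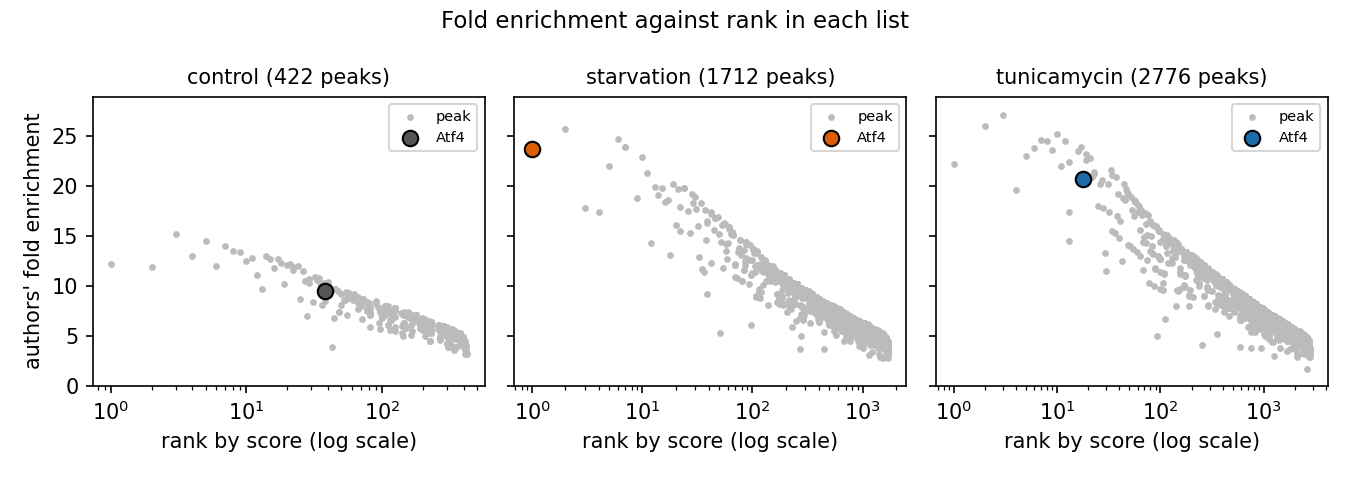
The authors' fold enrichment (y axis) against rank by score (x axis, log scale) for every peak of each list, with the Atf4 peak as the large point. Atf4 stands at rank 38 with a fold of 9.45 in control, rank 1 with 23.7 in starvation and rank 18 with 20.7 in tunicamycin.

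The peaks next to Atf4 in rank were close to it in score. In starvation the second peak, on chromosome 2 at 164658971 to 164659521, had a score of 906 and a fold of 25.8. The corresponding tunicamycin peak, at 164658966 to 164659547, stood just above Atf4 with a score of 870, and chromosome 17 at 53618155 to 53618734 followed Atf4 with 841. In control the tied peak, from 43456600 to 43456951 on chromosome 15, had a fold of 8.54, and the next, on chromosome 1 at 182295355 to 182295623, had a score of 173 and a fold of 10.1.

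The number of TFE3 tags (sequenced fragments) over the summit was recovered from the deposited fold and p-value. Atf4 had 47 tags in control (95% exact Poisson interval 34.5 to 62.5). It had 153 in starvation (130 to 179). In tunicamycin it had 190 (164 to 219). These libraries differed in depth, at 1.54, 1.62 and 2.14 times the IgG library, and in fragment length, taken as the shortest peak of each list at 149, 193 and 212 bp. At the depth of the IgG library the tags came to 30.6 (22.5 to 40.6), 94.6 (80.2 to 111) and 88.6 (76.4 to 102). Divided by the genome-wide background of the same list, which also takes up the fragment length, the signal at Atf4 was 17.0 times background for control cells (12.5 to 22.7), 40.7 for starved cells (34.5 to 47.7) and 34.7 for cells given tunicamycin (29.9 to 40.0). The control interval lay below both stress intervals, and the stress intervals overlapped, which is a description and not a test. All intervals cover counting error only, since tags without molecular identifiers are not independent molecules and no second culture was measured. Each tag number belongs to the summit of its own list, and these summits were at different positions. The intervals take no account of the choice of the highest point, or of the choice of this locus by its height in the lists. The same holds for the intervals of the ratios below.

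On this scale the starvation signal was 2.39 times that of control (95% interval 1.71 to 3.39) and the tunicamycin signal 2.04 times (1.47 to 2.87). With tags at the depth of the IgG library, before division by background, these ratios were 3.10 and 2.90. Their size thus depends on the scale. A higher signal than in control was common to nearly all shared sites. Starvation exceeded control in 165 of the 169 regions called in all lists (97.6%), and tunicamycin exceeded it in 166 (98.2%). By the authors' fold, starvation exceeded control in 167 (98.8%). Atf4 had one of the larger ratios of starvation to control, the eighth highest of 169 against a median of 1.64 (interquartile range 1.47 to 1.87). For tunicamycin over control the Atf4 ratio ranked 52 of 169 and lay within the interquartile range of 1.63 to 2.10, whose median was 1.91.

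Between the stresses Atf4 was among the minority of sites with the higher value in starvation. Tunicamycin over starvation was 0.853 at Atf4, with an interval for counting error of 0.685 to 1.06 that includes equal signal. The median of the 169 regions was 1.13 (interquartile range 1.00 to 1.23). The Atf4 ratio ranked 155 of 169. With tags at the depth of the IgG library, before division by background, the Atf4 ratio was 0.936. Starvation was above tunicamycin in 41 of 169 regions by tags over genome-wide background (24.3%) and in 43 by fold (25.4%). The direction at Atf4 is thus not separated from counting error, and the treatments also differed in length, 2 hours against 16 hours.

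**Figure D4:**
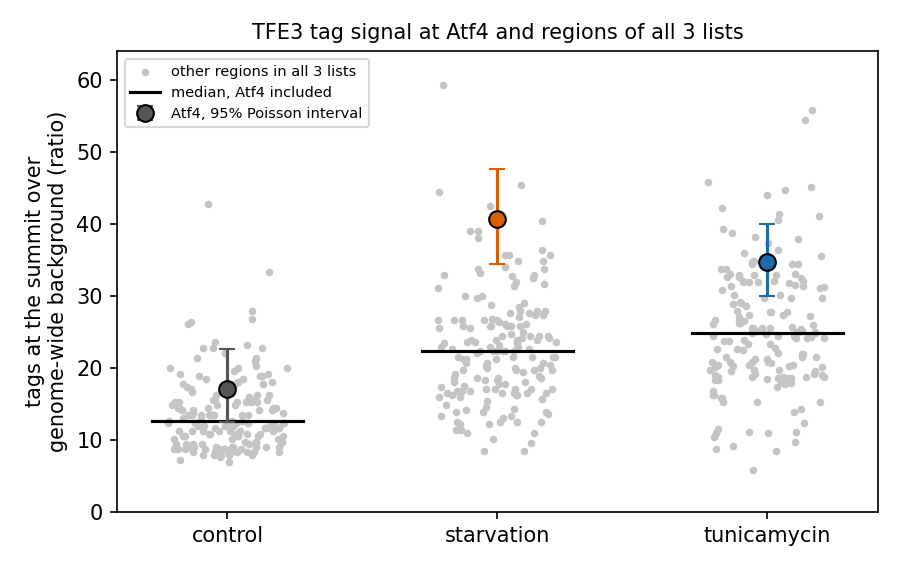
TFE3 tags at the summit divided by the genome-wide background of the list (y axis, ratio) for Atf4 (large points, bars are 95% exact Poisson intervals) and for the other regions called in all 3 lists (grey points, black line is the median with Atf4 included). Atf4 lies at 17.0, 40.7 and 34.7, above the medians of 12.7, 22.4 and 24.8.

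Atf4 shared its presence in all 3 lists with the other highest-scored starvation peaks, but not with every stronger control peak. The regions called in every list were 169 of 3415 (4.95%), a share that the 422 peaks of the control list limit, and they took in 170 of those control peaks (40.3%). Each of the 10 highest-scored starvation peaks, Atf4 included, lay in such a region, against 9.87% of all starvation peaks. In control, Atf4 ranked 28 by score among the peaks of such regions and 38 in the whole list. Some control peaks above Atf4 were therefore not called in every list. Among those 169, Atf4 had rank 30 by fold in control, 5 in starvation and 24 in tunicamycin, where the medians were 6.87, 12.2 and 14.1. Its signal over genome-wide background ranked 37, 5 and 20 in the same order. Width at Atf4 was above the median of these regions in each list, where control peaks had 209 bp, starvation peaks 394 bp and tunicamycin peaks 457 bp. The Atf4 peak ranked 35, 32 and 38 by width.

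The IgG background around the Atf4 peak was somewhat above that of the genome. The local background recovered for Atf4 was 1.30 times the genome-wide value in each list. Per kb it came to 15.7 IgG tags, against 12.0 over the genome. Over 10 kb this is 157 tags, the same whole number in the 3 lists, as a background read from 1 IgG library over a 10 kb window would give. Because 1 IgG library served every list, the equal ratio of 1.30 in the 3 lists is not a finding about the conditions. In these 169 regions the local background of Atf4 ranked 67 in control, 60 in starvation and 64 in tunicamycin.

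Atf4 had no neighbouring TFE3 peak close by, which was the usual spacing in these lists. Within 100 kb of its start the lists held 0 other summits. Over all peaks, 84.6% in the control list had no other summit of their list within 100 kb, as did 76.6% of those called after starvation and 72.7% of those called after tunicamycin. Within 1 Mb of Atf4 there was 1 other peak in control, 4 in starvation and 4 in tunicamycin, where the median over all peaks of a list was 0, 2 and 2. After the window the nearest peak was called in all lists about 543 kb away, from 80628795 to 80629154 in control, 80628776 to 80629167 in starvation and 80628638 to 80629205 in tunicamycin. That site had a higher rank than Atf4 in control (13, fold 9.69) and lower ranks in starvation (12, fold 14.3) and tunicamycin (29, fold 13.4). Before the window the nearest peaks were different in each list. The control one was 1224 kb from the start with a fold of 5.21, the starvation one 327 kb with 5.38, and the tunicamycin one 199 kb with 5.05. Chromosome 15 had 40, 99 and 178 peaks in control, starvation and tunicamycin, and Atf4 ranked 5, 1 and 1 among them by score.

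The sites whose folds were most like those of Atf4 were sought among the other 168 regions called in all lists, as the 5 with the smallest Euclidean distance between the 3 log2 folds. The nearest, on chromosome 11 at 50244402 to 50244846 (positions from the starvation list), was at a distance of 0.29. Its control fold was 9.17, its starvation fold 19.8 and its tunicamycin fold 22.5. A site on chromosome 8 from 46070880 to 46071333 followed at 0.33, with 10.6, 21.4 and 24.6. The other three were chromosome 11 at 119254206 to 119254518, chromosome 5 at 101227397 to 101227810 and chromosome 17 at 24300372 to 24300899, at distances of 0.37, 0.40 and 0.40. The median distance over the 168 was 1.27. Of these 5 sites, 4 had a higher fold in tunicamycin than in starvation, and the site on chromosome 17, at 19.8 against 17.6, had the order seen at Atf4. Their stress summits were 2 to 22 bp apart, against 69 bp at Atf4. With tag numbers in place of folds 1 of the 5 stayed among the nearest 5, and with ranks 2 did, so this likeness depends on the measure. These sites are named by position, because no mm9 annotation was used to pair them with genes.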

How the data were processed

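Peaks of the 3 TFE3 libraries were analysed as deposited, 1 list per library, called against the IgG library per the peak names. The submitters' processing notes name Bowtie, MACS2 and mm9 without a role or version. For each peak the authors deposited a score, the fold enrichment (a ratio to local background), −log10 values of p and q, and the offset of the summit. In 100% of the peaks of every list the deposited score was 10 times the −log10 q-value with decimals dropped. Scores and folds are the authors' values.

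Tags at the summit and the local background were derived from the authors' deposited −log10 p-value and fold. The formulas were those of MACS2, with a pseudocount of 1 in the fold and a Poisson tail for p, which the labels do not record. With 1 scale per list, a unique whole tag number met p to 0.004 (−log10) for 100%, 99.5% and 99.7% of control, starvation and tunicamycin peaks. The recovery was run on simulated lists made with the same formulas, so that run cannot show whether the deposited lists follow them. The merging was tested on simulated peaks.

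Peaks overlapping by at least 1 bp were merged into regions, and the peak of higher score was used where a list had more than 1 in a region (1 of 169 regions). With 1 library per group, no test between conditions was made. A ratio of tags has an exact interval, conditional on the sum of both tag numbers. Besides the Atf4 peaks, the text names by rule the peaks beside them in rank and on the chromosome and the 5 most alike regions. The members, lists and measures were chosen with earlier results of these data known. Alternatives covered the window, score threshold, measure ranked, background subtracted, summit or midpoint, overlap rule, list length and likeness measure. Coordinates are mm9 and 1-based. The promoter sequence was matched by symbol and not placed on mm9. Software was Python 3.11.15 with scipy 1.17.1, numpy 2.4.6, matplotlib 3.10.9 and pandas 2.3.3.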

Additional observations from a re-analysis of the deposited data

How the results depend on the processing

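With one choice changed at a time, 39 of 50 recomputed values stayed and 11 moved. A count or rank stayed if within 1.5 times its main value, a tag signal if inside its Poisson interval. The number of Atf4 peaks stayed at 1 per list within 1 kb of the start, in a window widened by 50 kb on each side and at scores of at least 68 or 108. In starvation the Atf4 peak ranked 5 by fold and 5 by tags instead of 1. By width its rank was 99 in control, 59 in starvation and 53 in tunicamycin. Midpoints in place of summits gave 5.5 bp for control and starvation, 24 bp for control and tunicamycin and 18.5 bp for the stresses. A 50% reciprocal overlap left 67 regions in all lists, Atf4 among them. A peak less than 50% as wide as another cannot meet that rule. Of the 5 most alike regions 1 stayed with tags and 2 with ranks. The cause of these moves was not tested. Subtracting the local background was added after seeing the data. No paired analysis was possible because each group had 1 library, and for the same reason no replicate could be left out.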
